A study of Danio rerio with 6 samples.

Results

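Cytochrome P450 enzymes (CYPs) are heme-containing monooxygenases that insert an oxygen atom into small lipophilic molecules, drawing electrons from P450 oxidoreductase at the endoplasmic reticulum or from ferredoxin in mitochondria. Families with high numbers mostly make or break down specific endogenous compounds, among them steroid hormones, sterols, bile acids, vitamin D and retinoic acid. Families CYP1 to CYP4 also oxidise fatty acids, eicosanoids, drugs and pollutants, and in fish as in mammals many of them are most abundant in liver and intestine. The members here are the genes of the deposited count table whose symbol begins with cyp followed by a family number: 86 of 32520 genes, sorted by family number into 13 steroid and sterol, 12 bile acid, 4 retinoid, 2 vitamin D, 5 CYP1, 40 CYP2, 5 CYP3 and 4 CYP4 genes and cyp20a1. They were chosen by name and not by any measured value, although earlier results of these data were known.

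The libraries are polyA RNA of whole zebrafish embryos at 5 days post fertilization, 3 of wild type (headed wt11, wt12 and wt13) and 3 of sas10 mutants (s1, s2 and s3). The study asked how loss of Sas10, a nucleolar protein needed to process the precursor of 18S ribosomal RNA, changes gene expression. The mutant allele, the parents of the embryos and the number of embryos per library are not given in the sources used here, and no treatment is recorded for either genotype. Because each library is a whole embryo preparation, fewer cells of a type and less RNA per cell cannot be told apart.

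Total counts ran from 17599625 to 19718753 per library. The targeted gene, listed as utp3 on chromosome 11, was at 35.0, 34.7 and 27.2 CPM (counts scaled to a common library size) in wild type and at 10.7, 11.3 and 10.5 CPM in mutants, a log2 fold change of -1.58 ± 0.13 (SE). Its adjusted p was 1.53e-06 by edgeR, with the quasi-likelihood test and the Benjamini-Hochberg method. The genotypes separated on the first principal component (85.8% of the variance), and wt11 stood furthest from its group on the second, with a score of 42.3. The change in these embryos was broad: 62.2% of the 21708 genes tested passed an adjusted p of 0.05, 30.5% higher in mutants and 31.8% lower. These shares are the background for the counts of P450 genes.

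The P450 transcript pool was smaller in sas10 mutants. Summed over all 86 genes, the level was 2716, 2951 and 3006 TPM (counts per transcript length, scaled to a common total) in wt11, wt12 and wt13, and 775, 871 and 857 TPM in s1, s2 and s3. The mutant mean, 834 ± 51.7 TPM (SD, n = 3), was 28.9% of the wild type mean of 2891 ± 154 TPM (n = 3), and the genotypes did not overlap. The intestinal and hepatic enzyme cyp3a65 made up 29.5% of the wild type pool and 2.04% of the mutant pool. Without it the sums were 2039 ± 113 and 817 ± 52.1 TPM, so that the mutant level of the remaining genes was 40.1% of wild type.

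**Figure D1:**
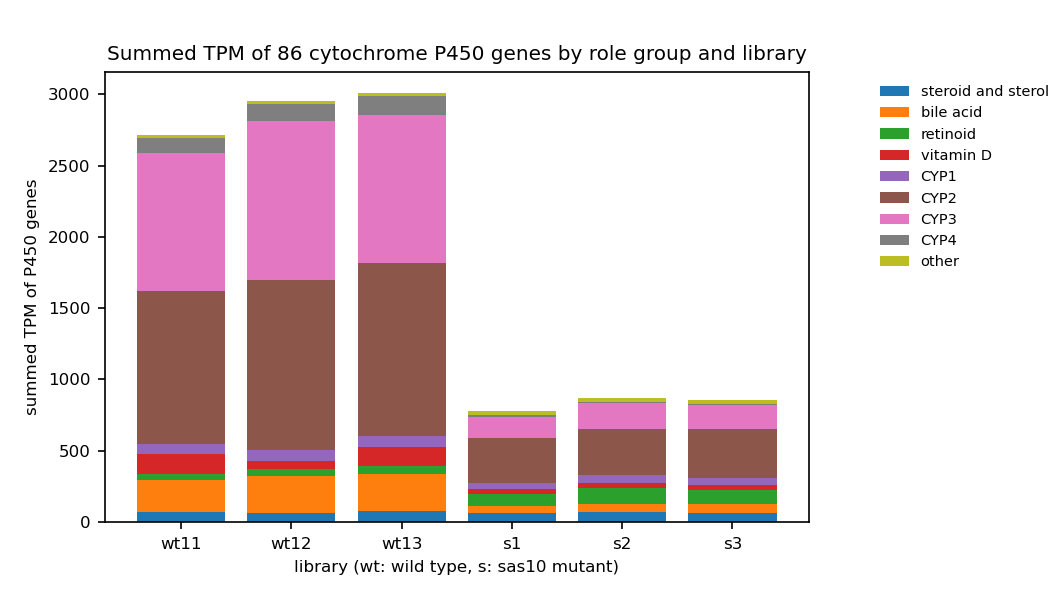
Summed TPM of the 86 P450 genes in each library (horizontal axis), stacked by role group (colours). The wild type bars reach 2716 to 3006 TPM and the mutant bars 775 to 871 TPM, with the CYP2 and CYP3 blocks forming most of each wild type bar.

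Of the 86 genes, 76 passed the filter on low counts. Among these, 42 fell and 12 rose in mutants, and 22 were not called, where called means an adjusted p under 0.05 over all 21708 genes. The called share, 71.1%, lies near the 62.2% of all genes, whereas the share that fell was 55.3% against 31.8% and the share that rose 15.8% against 30.5%. At least 2-fold decreases made up 47.4% of the tested P450 genes against 16.4% of all genes, and at least 2-fold increases 10.5% against 13.2%. At least 8-fold decreases made up 17.1%, or 13 genes, against 2.11% of all genes. The median log2 fold change was -0.85 for P450 genes and -0.04 for all genes. In 53 P450 genes the genotypes did not overlap (69.7%, against 67.6% of all genes). A gene could pass the filter on the counts of 1 genotype alone, so shares over the tested genes are a description, and no test was made of the family as a set.

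The filter left out 10 genes, with 0 to 57 counts each over the 6 libraries. They were both copies of cyp11a1 (the side-chain cleavage enzyme that begins steroid synthesis), the listed cyp19a1 gene (aromatase), cyp46a1.5, 2 of the 3 cyp8b1 copies, cyp2k22, cyp2k31, cyp2x6 and cyp2x10.1. No gene was found under the name cyp19a1b, the other aromatase copy planned for comparison, so its level is not given here. The higher of the cyp11a1 copies, ENSDARG00000092696, had 25 counts over the wild type libraries and 32 over the mutants. The cyp8b1 copy ENSDARG00000097556 had 24 and 4. A count of 0 in every library, as for cyp2k22, allows up to 3 counts per library, or 0.17 CPM in the shallowest.

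**Figure D2:**
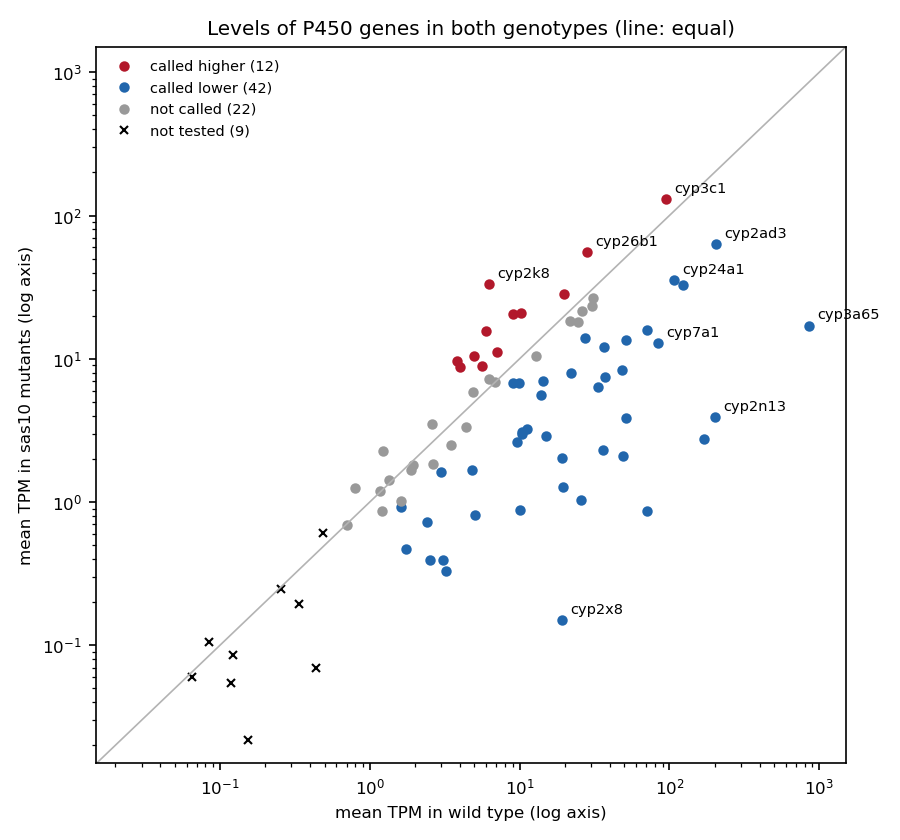
Mean TPM of the 85 P450 genes with counts in both genotypes, wild type on the horizontal and sas10 mutants on the vertical log axis, coloured by call; the line marks equal levels. Most abundant wild type genes lie below the line, with cyp3a65 at 852 against 17.03 TPM, and cyp3c1 is the abundant gene above it.

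The order of abundance differed between the genotypes. In wild type the 10 most abundant P450 genes held 68.4% of the pool, and 9 of them fell in mutants: cyp3a65, cyp2ad3, cyp2n13, cyp2ad2, cyp2y3, cyp24a1, cyp7a1, cyp3c3 and a cyp4v2 copy. The exception, cyp3c1, stood at 95.3 ± 6.71 TPM in wild type, rank 7, and at 131 ± 13.2 TPM in mutants, rank 1, where it made up 15.7% of the pool. The count of P450 genes at or above 10 TPM was 40 in wild type and 24 in mutants. Ranking by the wild type level uses the same values as the fold change, so these counts are a description.

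**Figure D3:**
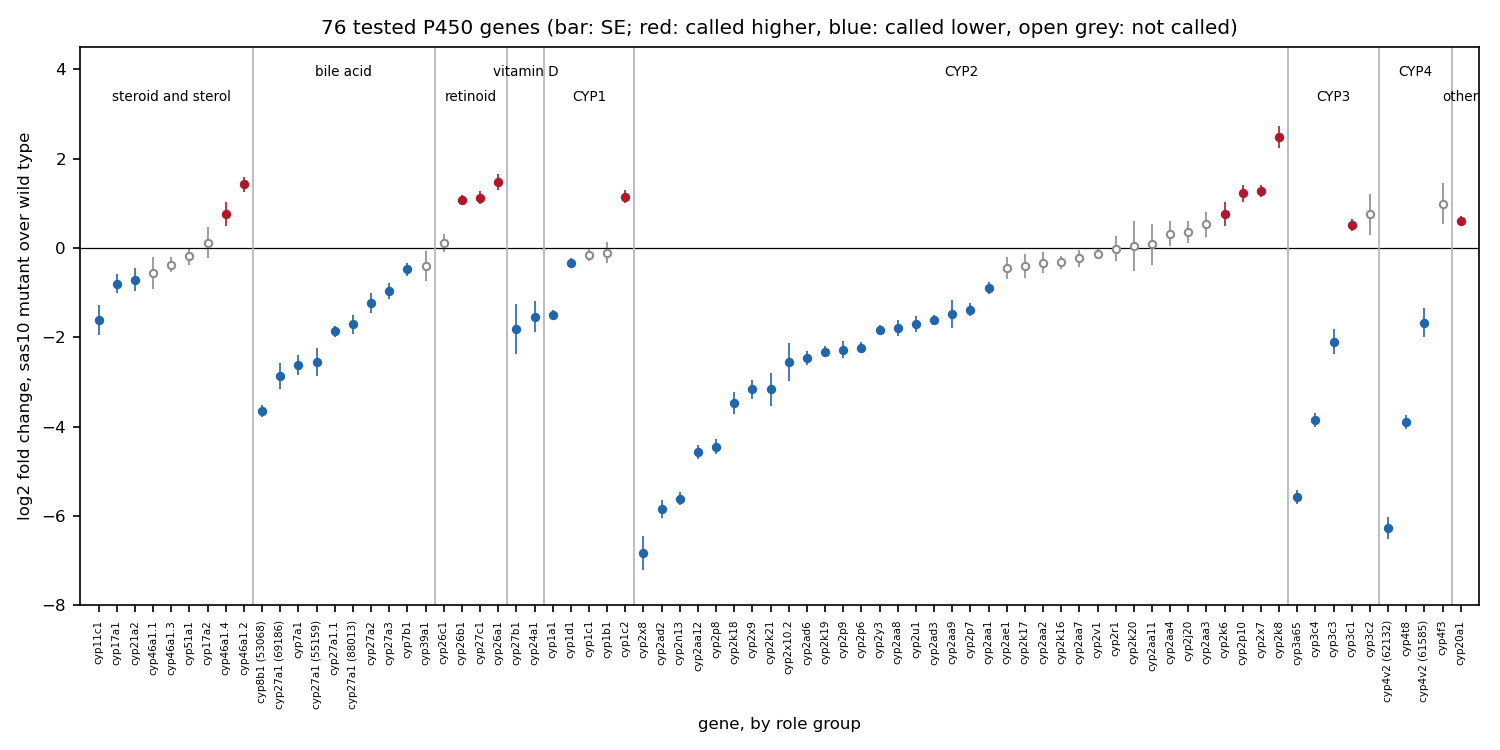
Log2 fold change of each of the 76 tested P450 genes (vertical axis; bars are SE), ordered within role groups along the horizontal axis. Decreases reach -6.83 in CYP2. In the bile acid group 9 of 10 genes are called lower, while 3 of 4 retinoid genes lie at 1.07 or above.

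Steroid and sterol P450 genes were called about as often as genes in general, and most steroid hormone enzymes were at low levels. Of these cyp11c1, cyp17a1 and cyp21a2 fell in mutants and cyp17a2 was not called, while both cyp11a1 copies were too low to test. The call of cyp21a2 was lost under 4 alternatives. In the steroid and sterol group 3 of 9 tested genes fell, 2 rose and 4 were not called, with a median log2 fold change of -0.37. The called share of 55.6% and the share that fell, 33.3%, lie near the 62.2% and 31.8% of all genes. The 11-beta-hydroxylase gene cyp11c1, which acts late in cortisol and 11-ketotestosterone synthesis, was at 2.16, 3.62 and 2.99 CPM in wild type against 1.30, 0.977 and 0.570 CPM in mutants (log2 fold change -1.62 ± 0.34, adjusted p = 0.00138, edgeR). The genotypes did not overlap, the highest mutant library being s1.

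The 17-alpha-hydroxylase/17,20-lyase gene cyp17a1 was at 3.89, 3.98 and 4.48 CPM in wild type against 2.60, 2.17 and 2.33 CPM in mutants (-0.80 ± 0.21, adjusted p = 0.00555, edgeR). The 21-hydroxylase gene cyp21a2, needed for cortisol, was at 2.33, 2.31 and 2.99 CPM in wild type against 1.46, 1.41 and 1.76 CPM in mutants (-0.72 ± 0.26, adjusted p = 0.0291, edgeR). Neither gene overlapped between genotypes. The call of cyp21a2 was lost without s1, s2 or wt13 (adjusted p = 0.0852, 0.0891 and 0.121, edgeR) and with DESeq2 (adjusted p = 0.0588). The related hydroxylase gene cyp17a2 was not called, at 1.39, 1.10 and 0.721 CPM in wild type against 1.19, 0.977 and 1.30 CPM in mutants (0.12 ± 0.34, adjusted p = 0.785, edgeR).

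The log2 ratio of cyp17a1 to cyp17a2 CPM, with a pseudocount of 0.5, was 1.58 ± 0.41 (SD, n = 3) in wild type and 0.80 ± 0.12 (n = 3) in mutants. The exact two-sided permutation p was 0.1, the smallest that 3 libraries against 3 can give, and 0.125 adjusted over the 5 pairs compared. No such pair could therefore pass 0.05. Planned pairs of cyp19a1 copies and of cyp11a1 copies were not compared, since the gene names did not give the planned copies separately. The interrenal gland, the steroid-making tissue of fish, is a small part of a whole embryo. Of its 7 marker genes, from 6 listed symbols, only 2 passed the filter. Among them star, the cholesterol carrier of steroid cells, rose (0.65 ± 0.22) and hsd3b1 fell (-1.44 ± 0.58), while mrap had 0 counts in all libraries. The summed level of the list was 7.9 to 8.2 CPM in wild type against 8.5 to 13.7 CPM in mutants, and without star it was 1.8 to 3.1 CPM and 1.1 to 2.0 CPM. Its part in the P450 values was not tested.

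Sterol enzymes of the group did not move together. The copies of cyp46a1, in mammals the cholesterol 24-hydroxylase of neurons, lie side by side on chromosome 20. Of these cyp46a1.2 rose, from 3.44, 3.46 and 3.40 CPM in wild type to 8.18, 10.4 and 9.17 CPM in mutants (1.43 ± 0.17, adjusted p = 2.4e-05, edgeR), with no overlap. The neighbouring cyp46a1.4 was called higher (0.76 ± 0.26, adjusted p = 0.0247, edgeR) at 3.66, 5.45 and 6.03 CPM in wild type against 5.47, 10.3 and 9.94 CPM in mutants. It is the single called P450 gene whose genotypes overlap, since s1 lies between wt12 and wt13. Its call was lost without s2, s3 or wt11 (adjusted p = 0.0935, 0.0851 and 0.0619, edgeR).

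The copies cyp46a1.1 (-0.57 ± 0.36, adjusted p = 0.187) and cyp46a1.3 (-0.37 ± 0.17, adjusted p = 0.0783, edgeR) were not called. The latter, the most abundant copy at 14.8 to 21.7 CPM in wild type against 11.96 to 16.7 CPM in mutants, was called lower without s1 or wt13 (adjusted p = 0.0376 and 0.0297, edgeR). The lanosterol demethylase gene cyp51a1, the P450 of cholesterol synthesis, was at 36.5, 24.4 and 38.99 CPM in wild type against 24.1, 34.4 and 29.0 CPM in mutants (-0.19 ± 0.18, adjusted p = 0.386, edgeR). Its genotypes overlapped widely. Of 21 tested partners of cholesterol synthesis 7 rose and 5 fell (median 0.04; 57.1% called against 62.2% of all genes), with mvk (1.41 ± 0.21) and idi1 (1.32 ± 0.11) the largest increases and dhcr7 (-1.59 ± 0.16) and tm7sf2 (-1.26 ± 0.18) the largest decreases.

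Of 17 tested steroid pathway partners 5 rose and 5 fell (median 0.05), and their called share of 58.8% lies near that of all genes, 62.2%. The progesterone receptor gene pgr rose from 0.125 to 1.86 CPM in the mean (3.83 ± 0.45), and hsd11b2, which inactivates cortisol, from 13.6 to 50.7 CPM (1.90 ± 0.17). The mineralocorticoid receptor gene nr3c2 (-1.53 ± 0.23) and a copy of srd5a2, the steroid 5-alpha-reductase gene (-1.53 ± 0.20), fell.

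**Figure D4:**
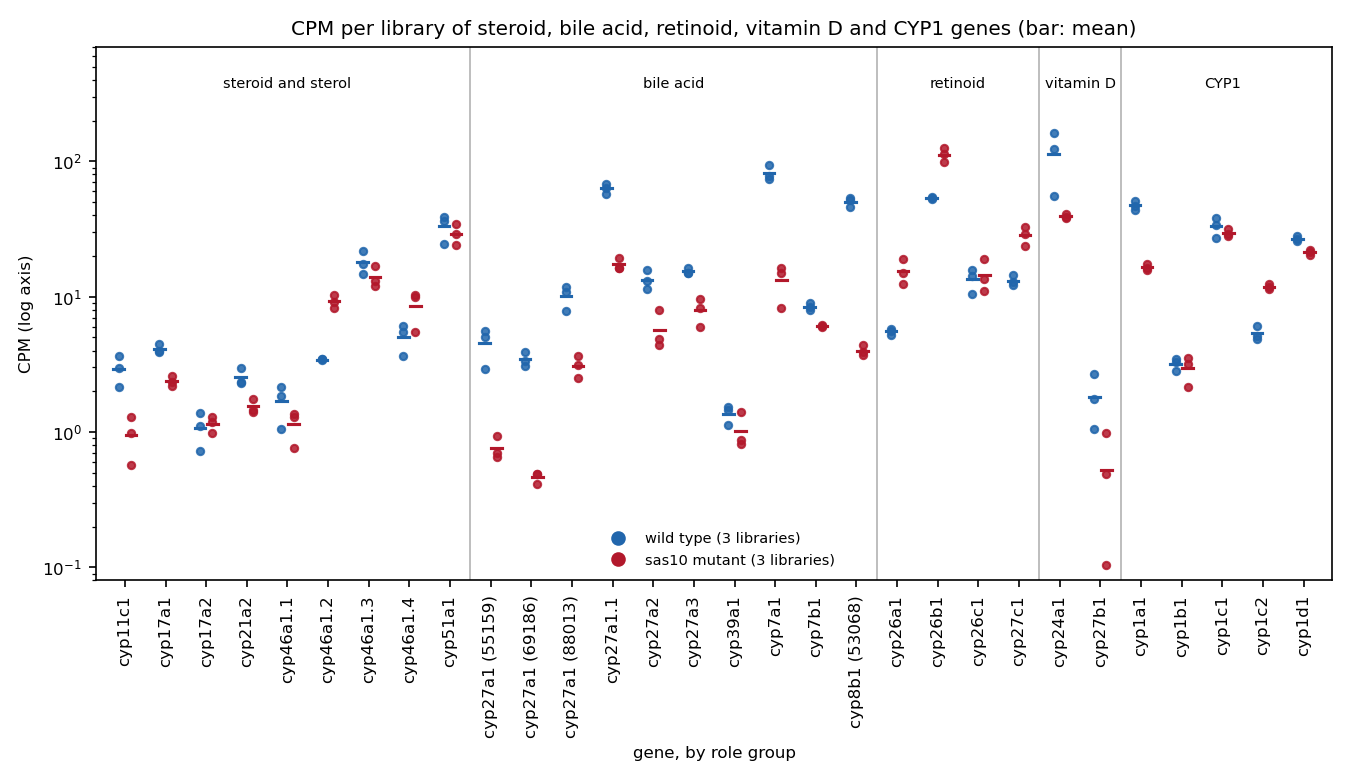
CPM in each library (vertical log axis; points, with bars at the mean of 3 libraries) of 30 genes of the steroid and sterol, bile acid, retinoid, vitamin D and CYP1 groups, wild type in blue and sas10 mutants in red. The mutant points of cyp7a1, cyp8b1 and all cyp27a genes lie below their wild type points, and those of cyp26a1, cyp26b1, cyp27c1 and cyp1c2 above.

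Nearly all measured bile acid enzyme genes fell. Of 10 tested genes 9 fell and 0 rose, with a median log2 fold change of -1.79. The share that fell was 90% against 31.8% of all genes. The summed level was 246 ± 18.1 TPM in wild type and 55.1 ± 5.16 TPM in mutants, or 22.4% of wild type. The gene cyp7a1 (chr2:22150134-22152797, GRCz11) encodes the rate-limiting enzyme of the classical pathway. It was at 78.0, 93.9 and 73.6 CPM in wild type against 8.29, 15.1 and 16.2 CPM in mutants (-2.63 ± 0.22, adjusted p = 5.21e-06, edgeR). The sterol 12-alpha-hydroxylase gene cyp8b1 (ENSDARG00000053068, chr2:3435888-3437862), which sets the share of cholic acid in mammals, was at 53.4, 51.8 and 46.04 CPM in wild type against 3.90, 3.69 and 4.402 CPM in mutants (-3.65 ± 0.13, adjusted p = 2.04e-09, edgeR). Wild type and mutant libraries of both genes were well apart. The log2 ratio of cyp7a1 to cyp8b1 was 0.69 ± 0.16 (SD, n = 3) in wild type and 1.55 ± 0.49 (n = 3) in mutants (exact permutation p = 0.1, adjusted 0.125).

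All 6 cyp27a genes fell; their human relative CYP27A1 is the mitochondrial sterol 27-hydroxylase of the side chain. The most abundant, cyp27a1.1, was at 68.6, 57.8 and 63.5 CPM in wild type against 16.4, 16.2 and 19.4 CPM in mutants (-1.87 ± 0.12, adjusted p = 1.72e-07, edgeR). The 3 genes that share the name cyp27a1 lie beside it on chromosome 9. Of these ENSDARG00000088013 was at 10.9, 11.7 and 7.78 CPM in wild type against 3.63, 3.15 and 2.49 CPM in mutants (-1.71 ± 0.21). The copy ENSDARG00000055159 was at 5.00, 2.94 and 5.61 CPM and at 0.704, 0.651 and 0.932 CPM (-2.55 ± 0.32), and ENSDARG00000069186 at 3.05, 3.93 and 3.35 CPM and at 0.488, 0.488 and 0.414 CPM (-2.88 ± 0.29). No copy overlapped between genotypes. Reads of near-identical copies may have been split or lost in counting, so the values of single copies are uncertain.

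The genes cyp27a2, at 15.7, 11.3 and 13.1 CPM in wild type against 7.91, 4.83 and 4.402 CPM in mutants, and cyp27a3, at 15.0, 16.3 and 15.0 CPM and 8.18, 5.97 and 9.58 CPM, fell too (-1.23 ± 0.22 and -0.96 ± 0.17). The oxysterol 7-alpha-hydroxylase gene cyp7b1 of the alternative pathway was at 8.94, 7.92 and 8.45 CPM in wild type against 5.96, 6.02 and 6.16 CPM in mutants (-0.48 ± 0.15, adjusted p = 0.0156, edgeR), and its call was lost without s1 (adjusted p = 0.0524, edgeR). The gene cyp39a1, whose mammalian enzyme 7-alpha-hydroxylates 24-hydroxycholesterol, was not called, at 1.44, 1.52 and 1.13 CPM in wild type against 0.813, 0.868 and 1.398 CPM in mutants (-0.40 ± 0.33, adjusted p = 0.31, edgeR).

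Other genes of bile acid synthesis and transport were lower as well: of 14 tested, 9 fell and 2 rose (median -1.38), or 78.6% called against 62.2% of all genes. The bile salt export pump gene abcb11 fell from a mean of 49.2 to 2.03 CPM (-4.60 ± 0.17) and fabp6, the ileal bile acid binding protein, from 148 to 17.7 CPM (-3.06 ± 0.20). Those that rose were fgfr4, the receptor through which FGF19 represses cyp7a1 in mammals (0.68 ± 0.10), and slc51a, a subunit of the basolateral bile acid exporter (0.44 ± 0.13). Hepatocyte and enterocyte markers differed at the same time. Of 12 hepatocyte genes 7 fell and 4 rose, or 91.7% called against 62.2% of all genes. The gene fabp10a fell by 5.50 on the log2 scale and ttr by 6.66, whereas the fibrinogen genes fga, fgb and fgg rose by 1.91 to 2.00. The summed level was 8012 to 9196 CPM in wild type against 7465 to 8022 CPM in mutants. These hepatocyte sums overlapped only at their ends. Without the transferrin gene tfa, which fell, they overlapped more widely, at 6860 to 7554 CPM in wild type and 7134 to 7775 CPM in mutants. Of 13 enterocyte genes, from 10 listed symbols, 10 fell and 2 rose, or 92.3% called. Their sum was 4860 to 5897 CPM in wild type against 1633 to 2444 CPM in mutants. Without chia.2, which fell from a mean of 2156 to 4.23 CPM, the sums were 2930 to 3426 CPM and 1630 to 2440 CPM. No gene of either list was at 0 throughout, and the part of these cells in the P450 values was not tested.

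Most retinoid enzyme genes were higher in mutants. Of the 4 genes 3 rose and 0 fell, with a median log2 fold change of 1.10. The share that rose was 75% against 30.5% of all genes, in a group of only 4. The summed level was 50.98 ± 7.06 TPM in wild type and 99.2 ± 15.2 TPM in mutants. The CYP26 enzymes hydroxylate and so clear retinoic acid, the vitamin A signal that patterns hindbrain, heart and limbs or fins, and in vertebrates cyp26a1 is itself induced by it. The gene cyp26a1 (chr12:8954761-8958353) was at 5.61, 5.19 and 5.82 CPM in wild type against 14.8, 18.9 and 12.5 CPM in mutants (1.48 ± 0.18, adjusted p = 2.21e-05, edgeR). The more abundant cyp26b1 (chr7:25323742-25348597) was at 53.7, 54.6 and 52.4 CPM in wild type against 98.2, 126 and 113 CPM in mutants (1.07 ± 0.11, adjusted p = 9.4e-06, edgeR). In both genes every mutant library lay above every wild type library.

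The hindbrain gene cyp26c1 did not pass the test, at 10.5, 15.7 and 14.2 CPM in wild type against 11.1, 18.9 and 13.6 CPM in mutants (0.11 ± 0.21, adjusted p = 0.665, edgeR). The log2 ratio of cyp26c1 to cyp26a1 was 1.19 ± 0.33 (SD, n = 3) in wild type and -0.09 ± 0.27 (n = 3) in mutants (exact permutation p = 0.1, adjusted 0.125), and that of cyp26b1 to cyp26a1 3.16 ± 0.11 and 2.84 ± 0.25 (exact permutation p = 0.2). The gene cyp27c1 encodes the enzyme that turns vitamin A1 into vitamin A2 and thereby shifts photoreceptor sensitivity to longer wavelengths in zebrafish. It was at 12.8, 12.2 and 14.4 CPM in wild type against 23.8, 33.0 and 29.1 CPM in mutants (1.13 ± 0.14, adjusted p = 3.81e-05, edgeR), with no overlap.

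Of the 35 tested retinoid partners 10 rose and 14 fell (median -0.24), a called share of 68.6% against 62.2% of all genes. Copies of the retinoic acid binding protein gene crabp2 rose by 2.34 ± 0.11 and 1.18 ± 0.10, and the retinol binding protein gene rbp7 by 2.14 ± 0.20. The carotenoid cleavage gene bco1l fell from a mean of 28.3 to 0.70 CPM (-5.33 ± 0.31) and the retinol dehydrogenase gene rdh1 from 29.0 to 2.11 CPM (-3.78 ± 0.21). The retinaldehyde dehydrogenase gene aldh1a2, which makes retinoic acid in the embryo, was not called (0.11 ± 0.10). Radial glia, the glial stem cells of the zebrafish brain, were given 9 marker symbols, 5 of them matched through a shared name. Of the 14 genes so found 6 were higher, 4 lower and none at 0. Their called share was 71.4% against 62.2% of all genes. They summed to 1713 to 1851 CPM in wild type against 2439 to 2819 CPM in mutants. The glutamine synthetase gene glul, with 2 copies, carried that rise: without it the other 12 genes summed to 927 to 1055 CPM in wild type and, lower, to 701 to 866 CPM in mutants. The part of these cells in the retinoid values was not tested.

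The vitamin D genes were both lower, against 31.8% of all genes. The 24-hydroxylase gene cyp24a1, which inactivates vitamin D and is its classical target gene, was at 163, 55.04 and 123 CPM in wild type against 39.01, 40.5 and 38.2 CPM in mutants (-1.54 ± 0.35, adjusted p = 0.00653, edgeR). The wild type libraries spread widely, the lowest being wt12, and still lay above all mutants. Without wt11 or wt13 the call was lost (adjusted p = 0.0547 and 0.054, edgeR). The 1-alpha-hydroxylase gene cyp27b1, which makes the active hormone, was at 1.05, 2.67 and 1.75 CPM in wild type against 0.488, 0.977 and 0.104 CPM in mutants (-1.81 ± 0.56, adjusted p = 0.0163, edgeR).

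The call of cyp27b1 was lost without s1 or wt12 (adjusted p = 0.0566 and 0.0754, edgeR), and without s2 its log2 fold change was -2.61. The 25-hydroxylase gene cyp2r1, a CYP2 gene by number, was not called (-0.02 ± 0.28, adjusted p = 0.962, edgeR). It shares 124 exon bases with calcb on the opposite strand, so its counts are uncertain. Of 3 entries named vdr, for the vitamin D receptor, 2 fell (-1.13 ± 0.15 and -0.95 ± 0.29) and the other was at -0.57 ± 0.30. The entries at -0.95 and -0.57 lie side by side on chromosome 23, on the same strand, and may not be separate genes. Markers of the pronephros, the larval kidney, summed to 470 to 575 CPM in wild type against 748 to 822 CPM in mutants. The pronephros list held 7 symbols, 5 of them matched through a shared name that takes in every gene of that name. Of the 11 genes so found 54.5% were called against 62.2% of all genes, and none was at 0. Among them 5 fell, such as the endocytic receptor gene cubn (-1.49 ± 0.14), and 1, a copy of slc20a1, rose (2.34 ± 0.15). That gene turned the direction of the sum, since without the slc20a1 copies the other 9 genes summed to 374 to 439 CPM in wild type and 235 to 269 CPM in mutants. Their part in the vitamin D values was not tested.

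In the CYP1 family, targets of the aryl hydrocarbon receptor (AHR) in part, 2 of 5 genes fell and 1 rose, a called share of 60.0% near that of all genes. The gene cyp1a1 (chr18:5588068-5598958), the classical AHR target that oxidises polycyclic aromatic compounds, was at 51.3, 46.6 and 43.9 CPM in wild type against 16.4, 15.8 and 17.6 CPM in mutants (-1.51 ± 0.11, adjusted p = 6.11e-07, edgeR). In contrast cyp1c2 was at 4.83, 5.14 and 6.08 CPM in wild type against 11.5, 11.7 and 12.4 CPM in mutants (1.15 ± 0.15, adjusted p = 5.45e-05, edgeR). Neither gene overlapped between genotypes.

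The close relative of cyp1c2, cyp1c1, was at 34.0, 37.8 and 27.3 CPM in wild type against 27.9, 31.6 and 28.8 CPM in mutants (-0.17 ± 0.13, adjusted p = 0.293, edgeR), and the groups overlapped. The log2 ratio of cyp1c1 to cyp1c2 was 2.51 ± 0.38 (SD, n = 3) in wild type and 1.27 ± 0.11 (n = 3) in mutants (exact permutation p = 0.1, adjusted 0.125). The gene cyp1d1, which AHR agonists do not induce in zebrafish embryos, was at 26.8, 28.1 and 25.7 CPM in wild type against 20.3, 22.3 and 21.5 CPM in mutants (-0.33 ± 0.11, adjusted p = 0.02, edgeR), and its call was lost without s1, s3 or wt12 (adjusted p = 0.0913, 0.0611 and 0.0737, edgeR). The gene cyp1b1, whose human relative is mutated in congenital glaucoma, was not called, at 3.27, 3.46 and 2.83 CPM in wild type against 2.17, 3.20 and 3.52 CPM in mutants (-0.10 ± 0.24).

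Of 11 tested AHR pathway genes 5 rose and 4 fell (median 0.08), or 81.8% called against 62.2% of all genes. The receptor genes ahr1b (-2.52 ± 0.42) and ahr1a (-2.10 ± 0.59) fell, while ahr2, the receptor that mediates dioxin toxicity in zebrafish, was slightly higher at a mean of 148 against 116 CPM (0.35 ± 0.11, adjusted p = 0.0186, edgeR). The co-chaperone gene ptges3 (1.66 ± 0.10) and the AHR target tiparp (0.86 ± 0.11) rose. In contrast the AHR repressor gene ahrra fell (-1.12 ± 0.30, adjusted p = 0.00723, edgeR), and nqo1 was not called (0.08 ± 0.165). Endothelial markers, given because AHR agonists induce cyp1a in vessels, summed to 125 to 147 CPM in wild type against 221 to 233 CPM in mutants. Of 7 genes 3 were higher, 2 lower and none at 0, or 71.4% called against 62.2% of all genes. Without kdrl the sums were 90.4 to 104 CPM in wild type and 113 to 128 CPM in mutants. The other genes that rose were both copies of cldn5, from a mean of 10.6 to 20.7 CPM and from 13.4 to 34.2 CPM. Those that fell were tek (-1.38 ± 0.19) and flt1 (-0.46 ± 0.18), and cdh5 (0.13 ± 0.15) and tie1 (-0.25 ± 0.12) were not called. The part of these cells in the CYP1 values was not tested.

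The single genes with the largest decreases belonged to families CYP2, CYP3 and CYP4, although the bile acid group had a lower median and a lower remaining level than CYP2. In CYP2 20 of 36 tested genes fell and 4 rose (median -1.43), in CYP3 3 of 5 fell and 1 rose (-2.10), and in CYP4 3 of 4 fell and 0 rose (-2.78). In that order the shares that fell were 55.6%, 60% and 75%, against 31.8% of all genes. Those that rose were 11.1%, 20% and 0%, against 30.5%. The called shares were 66.7%, 80.0% and 75.0%, of which that of CYP2 lies near the 62.2% of all genes. The summed levels of these families in mutants were 28.1%, 16.0% and 7.2% of wild type. The gene cyp3a65 (chr1:59338175-59348118), a relative of the human drug-metabolising enzyme CYP3A4, was at 883, 917 and 762 CPM in wild type against 18.9, 18.2 and 16.7 CPM in mutants, or 47.6-fold lower (-5.57 ± 0.15, adjusted p = 5.1e-10, edgeR). In the authors' deposited table its log2 fold change was -5.64.

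The cyp4v2 copy ENSDARG00000062132 (chr1:17900306-17912645), whose human relative is a fatty acid omega-hydroxylase mutated in Bietti crystalline dystrophy, was at 94.4, 89.1 and 94.9 CPM in wild type against 1.25, 1.79 and 0.570 CPM in mutants (-6.27 ± 0.24, adjusted p = 7.11e-09, edgeR). The other copy, ENSDARG00000061585, also fell, from 26.03, 31.7 and 19.8 CPM to 8.29, 11.9 and 4.14 CPM (-1.67 ± 0.33), and shares 551 exon bases with fam149a. The gene cyp4t8 fell from 45.0, 40.5 and 42.4 CPM to 2.82, 2.28 and 3.47 CPM (-3.90 ± 0.16). No value of a mutant library reached a wild type one in these genes. The gene cyp4f3, named for the leukotriene omega-hydroxylase, was not called (0.99 ± 0.47, adjusted p = 0.0829, edgeR), but was called higher without s3 or wt13 (adjusted p = 0.0213 and 0.0396, edgeR).

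Among CYP2 genes cyp2n13 fell from 198, 192 and 157 CPM in wild type to 3.74, 3.58 and 3.83 CPM in mutants (-5.61 ± 0.15, adjusted p = 3.99e-10, edgeR). Close to it, past cyp2ad6, cyp2ad2 fell from 154, 190 and 144 CPM to 2.00, 2.71 and 3.68 CPM (-5.85 ± 0.21, adjusted p = 2.16e-09, edgeR). It shares 165 exon bases with cyp2v1 on the opposite strand, where reads cannot be assigned. The lowest relative level was that of cyp2x8, with 306, 232 and 303 counts in wt11, wt12 and wt13 and 4, 0 and 3 counts in s1, s2 and s3 (-6.83 ± 0.38, adjusted p = 4.6e-08, edgeR). The fitted value rests on 7 mutant counts, and without s1 it was -7.42.

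Increases in these families were fewer. The gene cyp2k8 rose from 6.22, 6.61 and 5.25 CPM in wild type to 20.9, 39.1 and 40.9 CPM in mutants (2.48 ± 0.25, adjusted p = 1.42e-05, edgeR). The gene cyp2x7 rose from 7.38, 7.03 and 8.60 CPM to 18.3, 19.2 and 18.3 CPM (1.28 ± 0.13), and cyp2p10 from 3.16, 3.62 and 3.86 CPM to 7.86, 7.38 and 9.63 CPM (1.22 ± 0.18). All mutant libraries of these genes lay above wild type. The gene cyp2k6, at 3.88, 9.17 and 8.65 CPM and 10.7, 12.05 and 14.2 CPM (0.77 ± 0.27, adjusted p = 0.031, edgeR), lost its call without s2 or s3 (adjusted p = 0.0534 and 0.094, edgeR). The abundant cyp3c1 was at 127, 98.9 and 91.1 CPM in wild type against 137, 157 and 160 CPM in mutants (0.52 ± 0.14, adjusted p = 0.00605, edgeR), and s1 lay close to wt11.

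Of the remaining genes, cyp2u1, in humans a fatty acid hydroxylase linked to spastic paraplegia, fell from a mean of 8.69 to 2.67 CPM (-1.70 ± 0.19), and cyp2y3 from 160 to 44.8 CPM (-1.83 ± 0.11). The orphan enzyme gene cyp20a1, whose substrate is not established, rose from 19.04, 16.8 and 15.6 CPM to 25.4, 26.5 and 26.2 CPM (0.60 ± 0.12, adjusted p = 0.000959, edgeR). Calls of genes not called over all libraries appeared without wt13 for cyp2aa4 (0.66, adjusted p = 0.0424, edgeR), cyp3c2 (1.35, adjusted p = 0.0365, edgeR) and cyp2k16 (-0.43, adjusted p = 0.0182, edgeR).

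**Figure D5:**
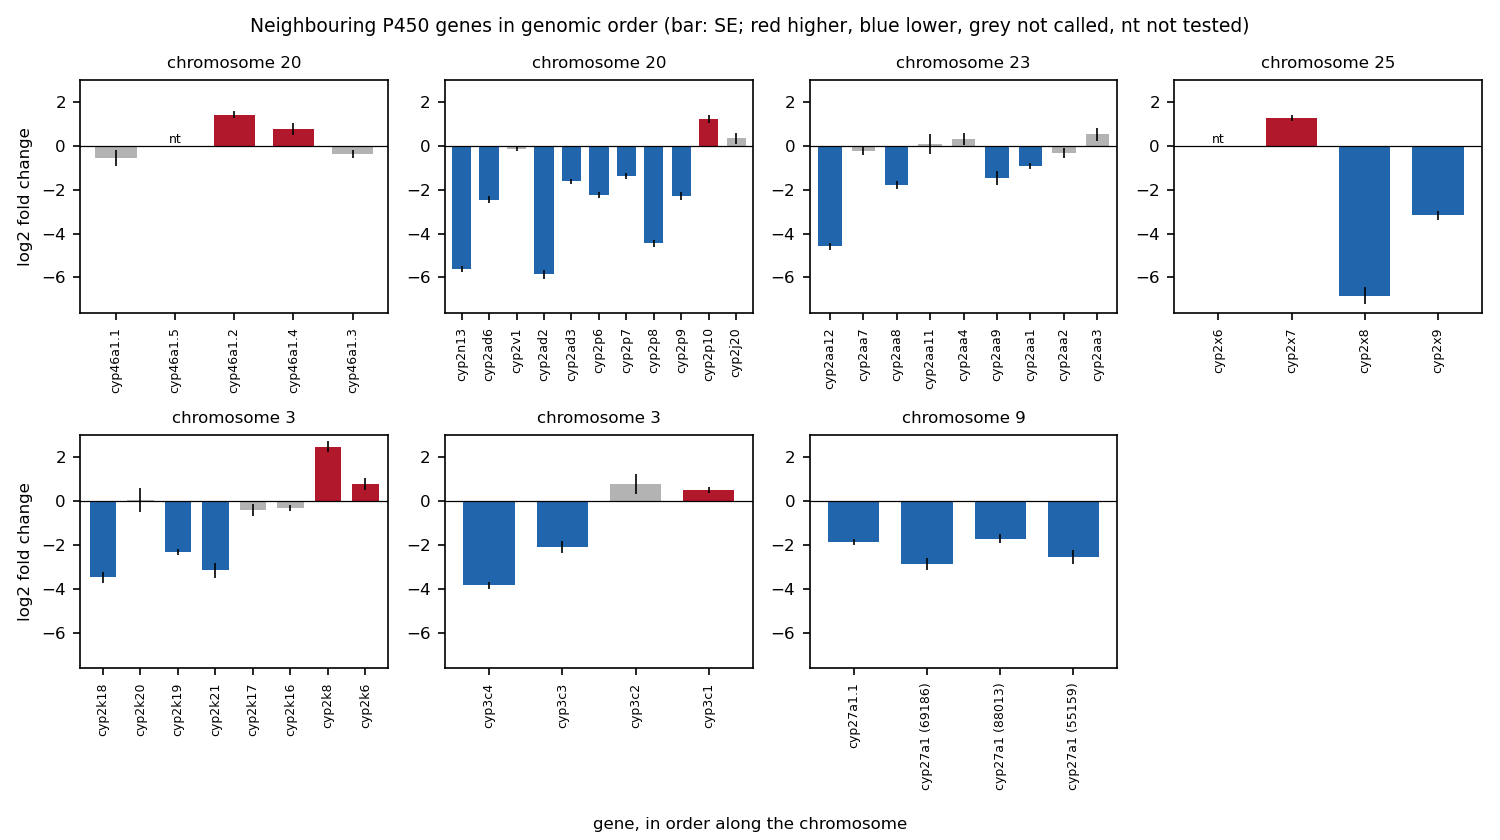
Log2 fold change (vertical axis; error bars are SE) of P450 genes that lie within 100 kb of each other, in genomic order along the horizontal axis, for the 7 clusters with 3 or more tested genes. The 4 genes on chromosome 9 are all lower, whereas 4 clusters, on chromosomes 3, 20 and 25, hold both red and blue bars.

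Many P450 genes lie in tandem clusters, where most neighbours that were both called had the same direction and a few had opposite ones. With a gap of at most 100 kb, a distance chosen after the positions were seen, 48 of the 86 genes form 8 clusters of 3 or more. Of the 40 adjacent pairs in them both genes were called in 17, in the same direction in 15 pairs and in opposite directions in 2. Since 42 of the 54 called P450 genes fell, many called pairs share a direction at any distance, and no test of position was made. In 4 clusters some genes rose and others fell, and the other 4 held no opposite calls. The largest, on chromosome 20 from cyp2n13 to cyp2j20 (chr20:25515259-25615802), holds 11 genes in 100.5 kb, relatives of the human epoxygenase CYP2J2. Of these 8 fell, 1 rose and 2 were not called, where 31.8% of all genes fell and 30.5% rose. Log2 fold changes there ran from -5.85 for cyp2ad2 to 1.22 for cyp2p10. The latter starts 1.2 kb after cyp2p9, which fell by 2.28 on the log2 scale.

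On chromosome 25 cyp2x7 (1.28) lies 7.9 kb from cyp2x8 (-6.83), the other pair of neighbours with opposite calls. Along the cyp3c cluster of chromosome 3 the log2 fold changes were -3.85, -2.10, 0.75 and 0.52 for cyp3c4, cyp3c3, cyp3c2 and cyp3c1. Of these cyp3c2 was not called (SE 0.455, adjusted p = 0.17, edgeR). In the cyp2k cluster of the same chromosome 3 genes fell (cyp2k18 at -3.47, cyp2k21 at -3.17 and cyp2k19 at -2.33), and cyp2k8 and cyp2k6 at its end rose. In the cyp2aa cluster of chromosome 23, 4 of 9 genes fell (44.4%, against 31.8% of all genes), led by cyp2aa12 (-4.58), and 5 were not called. The genes cyp2aa7 and cyp2aa8, like cyp2p7 and cyp2j20, share exon bases, so their separate values are uncertain. Of the 86 genes only cyp27b1 lies on chromosome 11, which carries utp3.

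Another list held genes of electron transfer to P450 enzymes and of heme synthesis and breakdown. Of its 17 tested genes 7 rose and 4 fell (median 0.04). The called share of 64.7% lies near the 62.2% of all genes. One por gene, for P450 oxidoreductase, was at 217 CPM in wild type against 216 CPM in mutants (-0.01 ± 0.12, adjusted p = 0.942, edgeR) and the other rose from 54.3 to 131 CPM (1.27 ± 0.11). The heme synthesis gene alas1 was not called (0.04 ± 0.15). The largest increases were in hmox1, for heme oxygenase, which breaks heme down (1.88 ± 0.15), and in cyb5b, for a cytochrome b5 (1.87 ± 0.11). The largest decreases were in cyb5r2 (-1.19 ± 0.14) and in hmox2, for another heme oxygenase (-0.94 ± 0.12). Of the P450 enzymes whose symbols do not begin with cyp, the thromboxane synthase gene tbxas1 fell (-1.63 ± 0.12) and the prostacyclin synthase gene ptgis rose (2.17 ± 0.18).

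Of 22 tested genes for nuclear receptors and factors that regulate P450 genes, 10 fell and 1 rose (median -0.48), or 50.0% called against 62.2% of all genes. The largest decreases were in nr5a5 (-3.95 ± 0.16), a relative of the bile acid gene regulator nr5a2, which fell too (-0.80 ± 0.17), and in pparaa (-1.73 ± 0.17), a fatty acid sensor that activates CYP4 genes in mammals. The hepatic factor gene hnf4a fell from a mean of 40.1 to 16.6 CPM (-1.28 ± 0.12), and srebf2, which drives sterol synthesis, rose (0.47 ± 0.10). The xenobiotic receptor gene nr1i2 (-0.15 ± 0.12, adjusted p = 0.287) and the bile acid receptor gene nr1h4 (-0.35 ± 0.17, adjusted p = 0.0822, edgeR) were not called. The authors' deposited table lists 43 of the 86 P450 genes, 10 higher and 33 lower, and all 43 had the same sign and were called in the fit used here. A further 11 P450 genes called here were not matched to a row of that table, among them cyp11c1, cyp17a1, cyp21a2 and cyp3c1. By the values of the fit used here, 8 of the 11 changed by at least as much as the smallest log2 change it lists. The genes cyp3c1 (0.52), cyp7b1 (-0.48) and cyp1d1 (-0.33) changed by less. The authors' log2 fold changes ran slightly lower than those used here, such as 0.997 against 1.07 for cyp26b1. On their scale cyp20a1 (0.60) may also lie under that smallest change, so the count of 8 is approximate.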

How the data were processed

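The authors' deposited gene counts are raw; they come, per the file headers, from featureCounts 2.0.1, with exons summed by gene with no strand option, so overlapping and antisense genes are uncertain. Per the submitters' processing notes, fastp 0.20.0, HISAT2 2.2.1, Salmon 0.12 and DESeq2 1.40.2 were also used, on GRCz11. The authors' deposited comparison gives log2 fold changes, a mean signal (baseMean) and p-values; only its log2 fold changes were used. Column headings show the genotype and no replicate number that the labels tie to a sample. Libraries are numbered replicates per the labels and were treated as biological repeats, so p-values measure only the spread between these samples.

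Symbols came from a name table (29201 of 32520 identifiers matched); 10 P450 genes share a symbol. Counts were fitted over all genes with edgeR 4.0.16 in R 4.3.3 (TMM, default filter, robust quasi-likelihood test), after a test on simulated data, and Benjamini-Hochberg adjusted. CPM uses scaled library sizes; TPM uses the deposited exon length, an other column of the count table. Python 3.11.15 was used. Members and lists were chosen with earlier results of these data known. Of 199 listed symbols 5 were not matched and 52 were taken through a shared name. A shared name takes in every gene that carries it, so a list can hold copies that were not planned for it. Among marker lists this held for 5 of 9 radial glia, 5 of 7 pronephros, 2 of 10 enterocyte, 1 of 6 interrenal and 1 of 7 endothelium symbols. Steroid and sterol, bile acid, retinoid, vitamin D and CYP1 genes of at least 1 CPM are given per library, as are the 5 largest increases and decreases of CYP2 to CYP4 of at least 5 CPM without overlap, and the 2 largest changes each way of a list; other names were chosen after their values were seen. Replicate pairs differed beyond sampling noise (chi-square of 7.29 to 30.5 for each degree of freedom). Alternatives were scaling by RLE or the upper quartile, no filter beyond 1 count, a stricter filter (1 CPM in 3 libraries, 100 counts), DESeq2 1.42.0, limma 3.58.1 voom, a replicate block, each library left out, other pseudocounts (0.1 and 2) and TPM without mitochondrial genes. Limits of 0 cover counting error only. The SE of a fold change was taken from its edgeR test, which includes the spread between libraries, and each SD is that of 3 libraries. Marker sums were also taken without the symbol of largest difference, a choice made after the values were seen.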

Additional observations from a re-analysis of the deposited data

How the results depend on the processing

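Of 76 tested P450 genes, 64 kept their call or lack of call under all alternatives that tested them (the stricter filter tested 74), and 12 changed call under at least 1. Reversals numbered 0, counted only where a gene was called in the main fit or the alternative. The direction of genes called in neither was not followed. Over all alternatives 39 to 44 P450 genes were lower and 10 to 15 higher. Upper-quartile scaling moved the median of all genes from -0.04 to -0.17 and that of P450 genes to -0.98. Under it 1 steroid and sterol gene was called higher in place of 2, as cyp46a1.4 lost its call (adjusted p = 0.051, edgeR), as did cyp2k6 (adjusted p = 0.0584, edgeR), while cyp46a1.3 and cyp2k16 were called lower. With each library left out in turn, 1 to 2 steroid and sterol genes were called higher, 1 to 2 vitamin D genes lower, 1 to 2 CYP1 genes lower and 1 to 2 CYP3 genes higher. Summed P450 levels without mitochondrial genes in the total were 3294 TPM in wild type and 966 TPM in mutants. Deviations of libraries with the same last digit correlated by 0.05 to 0.24, so the digits were not taken to pair them; with a replicate block 44 P450 genes were lower and 12 higher, cyp46a1.3 (adjusted p = 0.0179) and cyp2k16 (adjusted p = 0.0246, edgeR) being added, and 6886 genes were higher and 7138 lower in all. Pseudocounts of 0.1 and 2 left the sign of all 5 ratio differences unchanged. With no filter beyond 1 count 43 P450 genes were lower in place of 42, and 10 bile acid genes in place of 9. The added gene lies under the main filter. Genes under that filter, with at most 57 counts, are too shallow for a firm comparison.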
